A study of Saccharomyces cerevisiae with 12 samples.

Results

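HSP30, YRO2 and MRH1 are the genes of one family of membrane proteins of Saccharomyces cerevisiae that resemble the microbial rhodopsins. They were taken by name and are 3 of the 7126 genes with a transcript abundance. HSP30 had been picked because it fell strongly with the control vector at 2 h, YRO2 because it was among the genes most lowered by the YOX1 vector, and MRH1 as their relative. HSP30 and YRO2 were thus selected on measured values, the FPKM of control vector cells at 0 h and 2 h for HSP30 and of both strains at 2 h and 4 h for YRO2, and those values are given below as descriptions, without a test.

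RNA-seq was run on WT cells of the haploid laboratory strain BY4741, 2 libraries for each of 6 groups. The cells carried either pBY011-YOX1, a plasmid that expresses YOX1 from a galactose-inducible promoter, or the pBY011 control vector. YOX1 encodes a homeodomain repressor that binds together with the factor Mcm1. Cultures in raffinose medium without uracil were sampled untreated (0 h), then received galactose together with hydroxyurea (HU, an inhibitor of ribonucleotide reductase that stalls replication) to 200 mM and were sampled again at 2 h and 4 h, so the YOX1 vector and control vector groups at 2 h and 4 h both received both agents. HU, galactose and time in culture cannot be told apart in a change over time, and only the vectors differ within a time. Per the methods of the study the 2 libraries of a group are biological replicates.

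The family takes its place in the plasma membrane. Hsp30 is a stress protein that restrains Pma1, the proton pump that uses ATP to set the acidity of the cell. YRO2 is a target of Haa1, the activator of the response to acetic acid, and YRO2 and MRH1 are paralogs. The rhodopsin name refers to the resemblance of their sequences.

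HSP30 (YCR021C) lies on the minus strand at chrIII:156109-157107, YRO2 (YBR054W) on the plus strand at chrII:343101-344135 and MRH1 (YDR033W) on the plus strand at chrIV:508147-509109, in sacCer3 coordinates. Each is a single coding exon, and no other gene of the deposited tables overlaps any of them. To show how close the paralogs are, the 50 bases in which their coding sequences differ least are printed, with the 3 differing bases in capitals. They are bases 25 to 74 of each coding sequence, from the RefSeq genome of build R64.
YRO2 (chrII:343125-343174, plus strand): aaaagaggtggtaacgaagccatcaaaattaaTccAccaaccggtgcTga
MRH1 (chrIV:508171-508220, plus strand): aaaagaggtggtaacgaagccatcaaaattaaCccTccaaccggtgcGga
Over the aligned coding sequences YRO2 and MRH1 shared 78.1% of 950 bases. HSP30 shared 67.8% of 905 aligned bases with YRO2 and 69.3% of 879 with MRH1, and its nearest window of 50 bases to either had 12 differences. No window of 50 bases, the length of the reads, came within 2 mismatches of another member, so reads of one gene had no near-identical place in another.

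To show what stands before each gene, a stretch of 200 bases is printed below from the RefSeq genome of build R64, the one with the most bases inside motif matches among those that end at least 101 bases before the start codon. The stretch holds 3 of the 6 matches of the window for HSP30, 4 of 7 for YRO2 and 3 of 3 for MRH1. The stretches lie within the 1000 bases before the start codon, 5′ to 3′ on the strand of the gene, and matches on either strand are in capitals.
HSP30 (chrIII:157208-157407, minus strand): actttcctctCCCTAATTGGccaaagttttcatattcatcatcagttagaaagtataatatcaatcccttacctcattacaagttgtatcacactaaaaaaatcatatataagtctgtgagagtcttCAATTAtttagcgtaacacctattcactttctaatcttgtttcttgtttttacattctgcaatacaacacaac
YRO2 (chrII:342531-342730, plus strand): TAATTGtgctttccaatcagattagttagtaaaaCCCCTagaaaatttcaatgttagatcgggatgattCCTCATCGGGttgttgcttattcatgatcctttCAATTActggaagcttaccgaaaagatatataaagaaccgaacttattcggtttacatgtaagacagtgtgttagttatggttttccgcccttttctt
MRH1 (chrIV:507516-507715, plus strand): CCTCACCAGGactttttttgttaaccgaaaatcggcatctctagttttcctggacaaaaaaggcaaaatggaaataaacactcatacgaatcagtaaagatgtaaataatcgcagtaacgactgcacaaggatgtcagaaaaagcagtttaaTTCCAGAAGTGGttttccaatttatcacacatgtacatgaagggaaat
The letters searched were TAATTA or CAATTA for Yox1, CC and GG with 6 bases of any kind between them for Mcm1, AGGGG for the stress factors Msn2 and Msn4, GAGGGG for Haa1 (which contains AGGGG) and TTCNNGAA or GAANNTTC for the heat shock factor Hsf1. The Yox1 letters matched 4 times before HSP30, 3 times before YRO2 and 0 times before MRH1, and 70.8% of the 6002 promoters of this length held at least 1 match. At least 4 matches were held by 4.95% of the promoters and at least 3 by 14.6%. The Mcm1 letters matched 2 times before HSP30, 3 times before YRO2 and 2 times before MRH1, against 77.1% of promoters with a match. At least 2 Mcm1 matches were held by 48.0% of the promoters and at least 3 by 23.5%. The stress letters matched 1 time, before YRO2 (55.0% of promoters), and the Hsf1 letters 1 time, before MRH1 (59.7% of promoters). The Haa1 letters, held by 17.5% of promoters, matched before none of the 3 genes in this window. Only this form of the Haa1 letters was searched, so a site of another form would not be seen. The match of Mcm1 from -290 to -281 before HSP30 overlapped that of Yox1 from -287 to -282, and the Hsf1 match from -479 to -472 before MRH1 overlapped an Mcm1 match from -477 to -468. A gap of 313 bases separates HSP30 from the neighbouring gene YCR022C, so most of the window before HSP30 runs past this gap. Of the matches before HSP30 only that of Mcm1 from -533 to -524 lies beyond the gap. A match describes the letters of the window and no binding was measured.

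**Figure D1:**
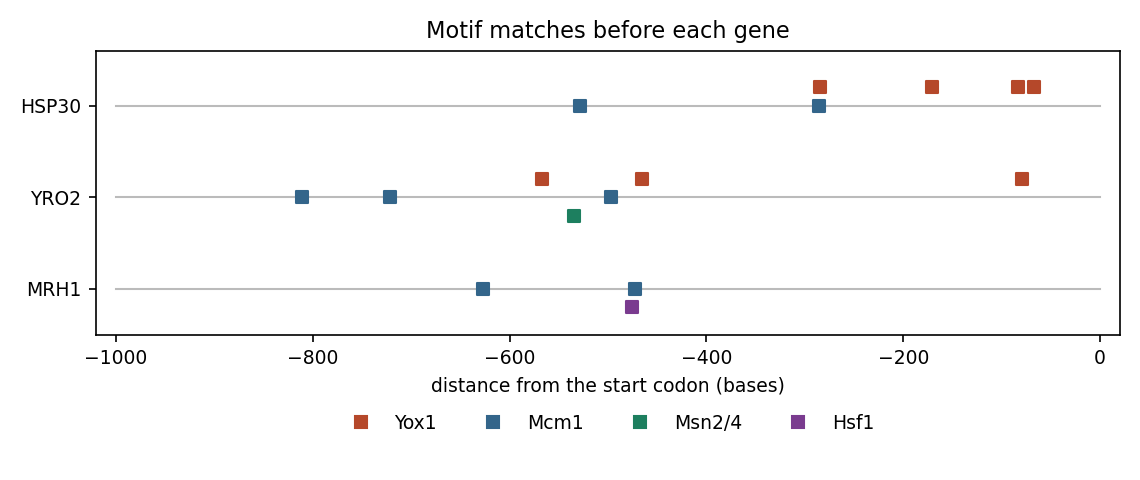
Motif matches in the 1000 bases before each start codon, as distance from the start codon in bases; each square is 1 match, coloured by factor, on either strand. Yox1 matches stand before HSP30 (4) and YRO2 (3) and not before MRH1, whereas Mcm1 matches stand before all 3 genes.

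The libraries held an implied 9660000 to 18060000 fragments, read from the width of the estimates' intervals, and the members rested on 206 to 16022 implied fragments each per library. YOX1 itself was higher with the YOX1 vector at each time, with log2 changes at 0 h, 2 h and 4 h of 1.52, 6.64 and 5.88 (SE 0.10 each; adjusted p = 0.00209 at 0 h, 4.64e-08 at 2 h and 1.2e-07 at 4 h in limma). The difference at 0 h stood before galactose was added. HUG1, which replication stress induces, had vector differences of -0.02 at 2 h and 0.18 at 4 h on the log2 scale, and GAL1 of -0.06 and -0.15, with an adjusted p of at least 0.723 in limma. The a cell marker STE2 was present and LEU2, deleted in BY4741, was listed at 0 in all 12 libraries.

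The family followed 2 patterns. HSP30 dropped with treatment in both strains and stayed low. YRO2 and MRH1 stood above their untreated level at 4 h with the control vector, and below it at 2 h and 4 h with the YOX1 vector. The values are FPKM, fragments normalised for gene length and library size, so levels can be compared between genes. Means ± SD are of FPKM scaled for library differences, and the values of single libraries are as deposited. Log2 changes are of scaled FPKM plus 1.

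YRO2 showed the widest difference between the vectors. With the YOX1 vector its deposited FPKM was 136 and 130.0 at 0 h, 23.0 and 30.3 at 2 h and 36.8 and 44.9 at 4 h. With the control vector it was 132 and 128 at 0 h, 109 and 101 at 2 h and 446 and 446 at 4 h. The untreated libraries of the 2 strains overlapped, whereas at 2 h and 4 h every YOX1 vector library lay below every control vector library. The share of all genes whose libraries separate in this way was not counted, here or for the other members. Scaled means at 4 h were 42.1 ± 5.38 FPKM with the YOX1 vector and 474.3 ± 7.01 FPKM with the control vector (SD, n = 2 each). This was a log2 change of -3.47 (SE 0.12), or 11.1-fold lower, the 7th lowest of the 6887 genes tested. At 2 h the log2 change was -1.99 (SE 0.12), the 78th lowest. These values chose the gene and are descriptions. Bulk RNA cannot tell a lower level per cell from fewer cells that express the gene.

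At 0 h, which the choice did not use, the scaled means of YRO2 were 126.8 ± 0.549 FPKM with the YOX1 vector and 127.3 ± 4.47 FPKM with the control vector (SD, n = 2 each). The log2 change was -0.00 with a 95% interval from -0.28 to 0.28, and the adjusted p was 1.0 in limma with Benjamini-Hochberg adjustment. In that comparison 0.0145% of all genes were called lower and 0.0145% higher, a gene being called at an adjusted p under 0.05. These are 1 gene each, and the lower ones were 8 when only the 4 libraries compared were fitted or without control vector replicate 2, and 19 without YOX1 vector replicate 1. YOX1 was the gene called higher with all libraries, so the vectors differed in YOX1 at that time while no difference in YRO2 was detectable within the interval.

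Over time YRO2 moved apart in the 2 strains. With the YOX1 vector the log2 change against 0 h was -2.26 at 2 h and -1.57 at 4 h, and with the control vector it was -0.28 at 2 h and 1.89 at 4 h (SE 0.12 each, with the 0 h libraries shared within a strain). From 2 h to 4 h the log2 change was 0.69 with the YOX1 vector and 2.17 with the control vector. The groups in order of level were control vector at 4 h, control vector and YOX1 vector at 0 h (these libraries overlapped), control vector at 2 h, YOX1 vector at 4 h and YOX1 vector at 2 h, and no other neighbours overlapped.

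**Figure D2:**
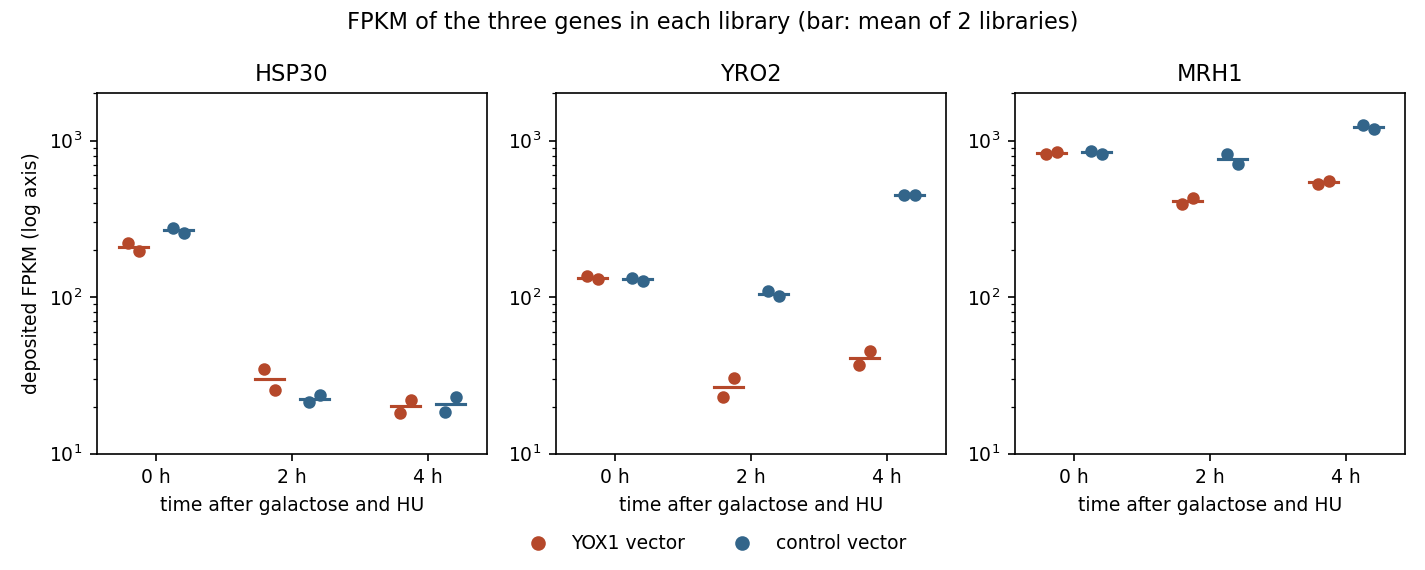
Deposited FPKM (log axis) of HSP30, YRO2 and MRH1 in each library by time after galactose and HU; points are libraries, bars the mean of 2 libraries, and the YOX1 vector stands left of the control vector. HSP30 is low in all 8 treated libraries, and YRO2 and MRH1 are lower with the YOX1 vector than with the control vector at 2 h and 4 h.

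MRH1, the paralog, was the most abundant member. With the YOX1 vector its deposited FPKM was 826 and 839.7 at 0 h, 392 and 430.5 at 2 h and 528 and 553 at 4 h. Control vector libraries had 863 and 827 at 0 h, 819 and 713 at 2 h and 1254 and 1186 at 4 h. The YOX1 vector libraries lay below the control vector libraries at 2 h and 4 h, and overlapped them at 0 h.

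Between the vectors MRH1 averaged 399.3 ± 19.4 FPKM with the YOX1 vector and 762.5 ± 79.3 FPKM with the control vector at 2 h (SD, n = 2 each). The log2 change was -0.93 (SE 0.08; adjusted p = 0.000776 in limma), and 1.68% of all genes were called lower and 0.261% higher in this comparison. When the spread was taken only from the 4 libraries compared, the adjusted p at 2 h was 0.0865. At 4 h the means were 557.0 ± 10.1 FPKM with the YOX1 vector and 1295.9 ± 32.0 FPKM with the control vector (SD, n = 2 each). The log2 change was -1.22 (SE 0.08; adjusted p = 8.3e-05 in limma), a 2.32-fold lower level, in a comparison that called 4.31% of genes lower and 1.92% higher. At 0 h the means were 794.7 ± 31.1 FPKM with the YOX1 vector and 827.8 ± 33.5 FPKM with the control vector (SD, n = 2 each). The log2 change at 0 h was -0.06 (95% interval from -0.24 to 0.12; adjusted p = 0.836 in limma).

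The change of MRH1 over time was tested within each strain. With the YOX1 vector it fell, with log2 changes against 0 h of -0.99 at 2 h (adjusted p = 5.51e-05 in limma) and -0.51 at 4 h (adjusted p = 0.000882). It was higher at 4 h than at 2 h in that strain, by a log2 change of 0.48 (adjusted p = 0.00885), a comparison that called 11.0% of all genes in either direction. That last call was lost, at an adjusted p of 0.0673, without YOX1 vector replicate 1 at 2 h and, at 0.0588, without YOX1 vector replicate 2 at 4 h, and at 0.0509 when only the groups compared were fitted. In control vector cells the log2 change was -0.12 at 2 h (95% interval from -0.30 to 0.06; adjusted p = 0.261), where 37.8% of genes were called in either direction. At 4 h MRH1 rose with the control vector, by 0.65 against 0 h (adjusted p = 0.000282) and by 0.77 against 2 h (adjusted p = 0.000943, with 18.3% of genes called in either direction). The call against 2 h was lost, at an adjusted p of 0.064, when only the groups compared were fitted, a fit that called 184 of all genes against 1257. The SE of each of these changes was 0.08.

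Among all genes of the YOX1 vector cells, the calls against 0 h took 22.2% as lower and 21.6% as higher at 2 h, and 27.0% as lower and 26.4% as higher at 4 h. Control vector cells at 4 h had 26.0% called lower and 25.1% higher. A call over time was therefore common in these cells.

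Whether the change over time differed between the strains was tested directly for MRH1. The change over 2 h with the YOX1 vector minus that with the control vector was -0.87 (SE 0.11; adjusted p = 0.0143 in limma), where 0.741% of genes were called in either direction. Over 4 h the difference was -1.16 (SE 0.11; adjusted p = 0.00153), where 2.48% were called. Both differences use the same 0 h libraries. The difference over 2 h had an adjusted p between 0.0521 and 0.072 without YOX1 vector replicate 2 or either control vector replicate at 0 h, or without YOX1 vector replicate 1 at 2 h. For YRO2 the same differences were -1.98 and -3.46 (SE 0.17 each), as descriptions.

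**Figure D3:**
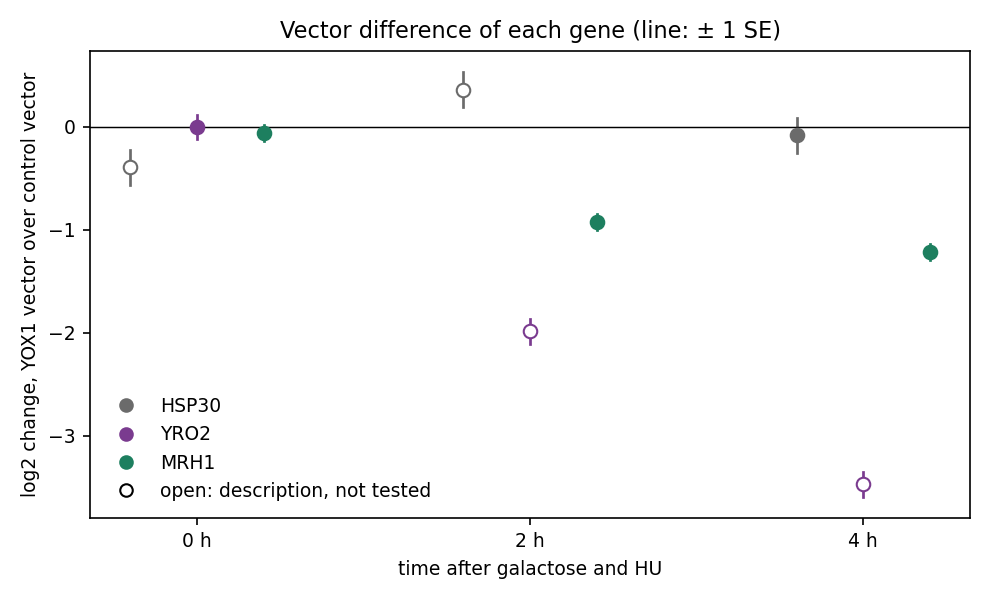
Log2 change of the YOX1 vector over the control vector for each gene and time, with lines of 1 SE to each side; filled points were tested and open points are descriptions of contrasts that share libraries with the choice of the gene. At 4 h MRH1 stands at -1.22, YRO2 at -3.47 and HSP30 at -0.08.

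The paralogs moved together in direction and not in size. The FPKM of MRH1 was 6.07 to 6.53 times that of YRO2 in the 4 untreated libraries of both strains. With the YOX1 vector the ratio was 17.1 and 14.2 at 2 h and 14.4 and 12.3 at 4 h. With the control vector it was 7.50 and 7.05 at 2 h and 2.81 and 2.66 at 4 h. The ratio was thus higher in every treated YOX1 vector library than in any control vector library, and lowest with the control vector at 4 h.

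**Figure D4:**
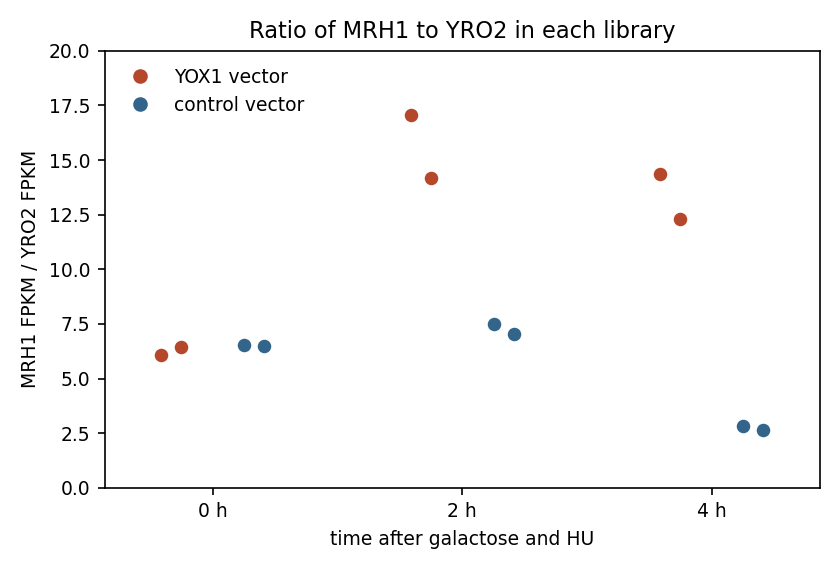
Ratio of MRH1 to YRO2 FPKM in each of the 12 libraries by time, with the YOX1 vector left of the control vector; each point is 1 library. The ratio lies between 6.07 and 6.53 at 0 h, is 12.3 or more in treated YOX1 vector cells, and is 2.81 and 2.66 with the control vector at 4 h.

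HSP30 took the other course. With the YOX1 vector its deposited FPKM was 221 and 198 at 0 h, 34.8 and 25.4 at 2 h and 18.1 and 21.9 at 4 h. Control vector libraries had 278 and 258 at 0 h, 21.2 and 23.6 at 2 h and 18.4 and 22.9 at 4 h. All 8 treated libraries lay far below all 4 untreated ones in both strains.

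In control vector cells, whose values chose the gene, the log2 change of HSP30 was -3.50 at 2 h, 11.3-fold lower and the 4th lowest of 6887 genes, and -3.53 at 4 h (SE 0.17 each). In the YOX1 vector cells, whose libraries the choice did not use, HSP30 was lower than at 0 h, with log2 changes of -2.75 at 2 h (adjusted p = 1.74e-05 in limma) and -3.22 at 4 h (adjusted p = 3.86e-06). Scaled means with the YOX1 vector were 199.5 ± 9.99 FPKM at 0 h, 29.3 ± 6.97 FPKM at 2 h and 20.6 ± 2.49 FPKM at 4 h (SD, n = 2 each). The further log2 change from 2 h to 4 h was -0.47 (95% interval from -0.86 to -0.08; adjusted p = 0.127), which did not pass the test.

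Between the vectors at 4 h HSP30 averaged 20.6 ± 2.49 FPKM with the YOX1 vector and 22.0 ± 3.71 FPKM with the control vector (SD, n = 2 each). The log2 change was -0.08 with a 95% interval from -0.48 to 0.31 (adjusted p = 0.84 in limma), an interval that leaves out a change of the size seen in MRH1 or YRO2. HSP30 was by then far below its 0 h level in both strains, and whether a further lowering had room to appear was not tested. The descriptions at the other times were log2 differences of -0.39 at 0 h and 0.36 at 2 h (SE 0.17 each), opposite in sign. The libraries of the vectors did not overlap at these times. With 2 libraries against 2 this can occur without a difference, and the share of all genes that did so was not counted. The lowest 3 groups, control vector at 2 h and 4 h and YOX1 vector at 4 h, overlapped in their libraries.

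The genes most like each member were sought by Pearson's r of log2 values over the 12 libraries, among 5056 genes with at least 10 FPKM on average. MRH1 was the gene most like YRO2 and YRO2 the gene most like MRH1, with r = 0.988 over all 12 and 0.989 over the 8 treated libraries. Next to YRO2 came CRH1 (r = 0.964), which encodes a cell wall crosslinking enzyme, and YLR297W (r = 0.964). Next to MRH1 came YLR297W (r = 0.965) and YCR024C-B (r = 0.960). For HSP30 these were PCL9, a cyclin of the kinase Pho85 (r = 0.986), RPS11A, a ribosomal protein gene (r = 0.986), and TPS2, an enzyme of trehalose synthesis (r = 0.984). HSP30 itself had r = 0.148 with YRO2 and 0.159 with MRH1, and its libraries fall into 4 high and 8 low ones, so its r values describe mainly that step. The 12 libraries are shared by all of these correlations. An r does not give the size of a change. Scaled FPKM ran from 18.9 to 274 for HSP30, 12.7 to 57.2 for PCL9, 1377 to 2072 for RPS11A and 107 to 403 for TPS2. The ranges were 22.6 to 479 for YRO2, 386 to 1318 for MRH1 and 97.1 to 289 for CRH1. They were 34.4 to 231 for YLR297W and 1512 to 2896 for YCR024C-B.

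The genes of the Haa1 regulon, to which YRO2 belongs, were compared next, with YRO2 itself left out. The 12 genes of the list include HAA1, the activator's own gene, which was called lower at 2 h and 4 h. Of the 12 genes limma called 3 lower with the YOX1 vector at 2 h and 0 higher. An unadjusted p under 0.05 was met by 6 lower and by 3 higher ones. The same held for 488 lower and 314 higher of the 6887 genes tested. Over all genes 1.68% were called lower and 0.261% higher at 2 h. The numbers in the list at 4 h were 5 lower and 1 higher (6 and 1 at an unadjusted p under 0.05), beside 4.31% of all genes called lower and 1.92% higher. The list's median log2 change was -0.24 at 2 h and -0.27 at 4 h, beside 0.00 and 0.01 over all genes. YGP1, which encodes a secreted glycoprotein, averaged 145.9 ± 30.9 FPKM with the YOX1 vector and 1057 ± 43.4 FPKM with the control vector at 4 h (SD, n = 2 each). Its log2 change was -2.86 (SE 0.18; adjusted p = 7.22e-05 in limma) at 4 h and -1.77 (adjusted p = 0.00197) at 2 h. YLR297W, named for its likeness to both paralogs over these same libraries, had log2 changes of -1.25 at 2 h and -1.74 at 4 h. Its values are descriptions, since YRO2 had been chosen for its difference between the vectors. YLR297W is among the genes of the list counted as lower at 2 h and at 4 h.

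HAA1, the activator itself, stood at a log2 change of -0.43 at 2 h (adjusted p = 0.0131 in limma) and -0.37 at 4 h (adjusted p = 0.012). TDA6 was at -1.33 (adjusted p = 0.00465) and TPO3, a polyamine exporter, at -0.46 (adjusted p = 0.0237) at 4 h. HAA1, TDA6 and TPO3 were named after their values had been seen. Of the other abundant genes of the list EGO4 had log2 changes of -0.17 at 2 h and 0.05 at 4 h, SPI1 of -0.93 and -0.83, and TPO2 of 0.37 and -0.00, none called. With the spread of only the 4 libraries compared, 2 genes were called lower at 4 h. Without control vector replicate 2 or YOX1 vector replicate 1 at 4 h the number was 3. The call of HAA1 at 2 h was lost without any 1 of the 4 libraries compared.

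The change over time of this list ran both ways. At 4 h against 0 h, 6 genes were called higher and 5 lower in YOX1 vector cells (SPI1, YGP1, EGO4, HAA1 and YLR297W), and 8 higher and 2 lower in control vector cells (SPI1 and EGO4). Beside them, 26.4% of all genes were called higher and 27.0% lower in YOX1 vector cells, and 25.1% higher and 26.0% lower in control vector cells. The list's median was 0.68 with the YOX1 vector and 0.88 with the control vector. YGP1 and YLR297W moved in opposite directions in the 2 strains. YGP1 fell by 2.05 on the log2 scale with the YOX1 vector (adjusted p = 4.94e-05 in limma) and rose by 0.66 with the control vector (adjusted p = 0.0152). YLR297W fell by 0.44 with the YOX1 vector and rose by 1.42 with the control vector, as descriptions. The difference between the strains over 4 h was -2.71 for YGP1 (adjusted p = 0.00137) and, as a description, -1.86 for YLR297W. TPO2, the polyamine exporter most induced in the list, rose by a log2 change of 3.08 with the YOX1 vector (adjusted p = 1.75e-06 in limma) and of 2.86 with the control vector (adjusted p = 2.67e-06).

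The proton pump PMA1, which Hsp30 restrains, and its regulators formed the next list, of 7 genes. At 2 h limma called 0 of them in either direction, beside 1.68% of all genes called lower and 0.261% higher. An unadjusted p under 0.05 was met by 1 lower and by 1 higher one. The same held for 488 lower and 314 higher of the 6887 genes tested. At 4 h 2 were called lower with the YOX1 vector and 1 higher, beside 4.31% of all genes lower and 1.92% higher. PMP1, which encodes a small subunit of the pump, averaged 1972 ± 140.6 FPKM with the YOX1 vector and 3859 ± 865.1 FPKM with the control vector at 4 h (SD, n = 2 each), a log2 change of -0.95 (adjusted p = 0.0255). PMA1 had a log2 change of -0.45 (adjusted p = 0.0267), and HRK1, a kinase that activates the pump and is also a Haa1 target, of 0.23 (adjusted p = 0.031). PMP2 had a log2 change of 0.09 (adjusted p = 0.841). The calls of PMP1, PMA1 and HRK1 were lost when the spread came only from the 4 libraries compared and under quantile normalization. Those of PMA1 and HRK1 were also lost without any 1 of these libraries, and that of PMP1 without any 1 except control vector replicate 2. PMP1 and PMP2 are shorter than a sequenced fragment, which inflates their FPKM.

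**Figure D5:**
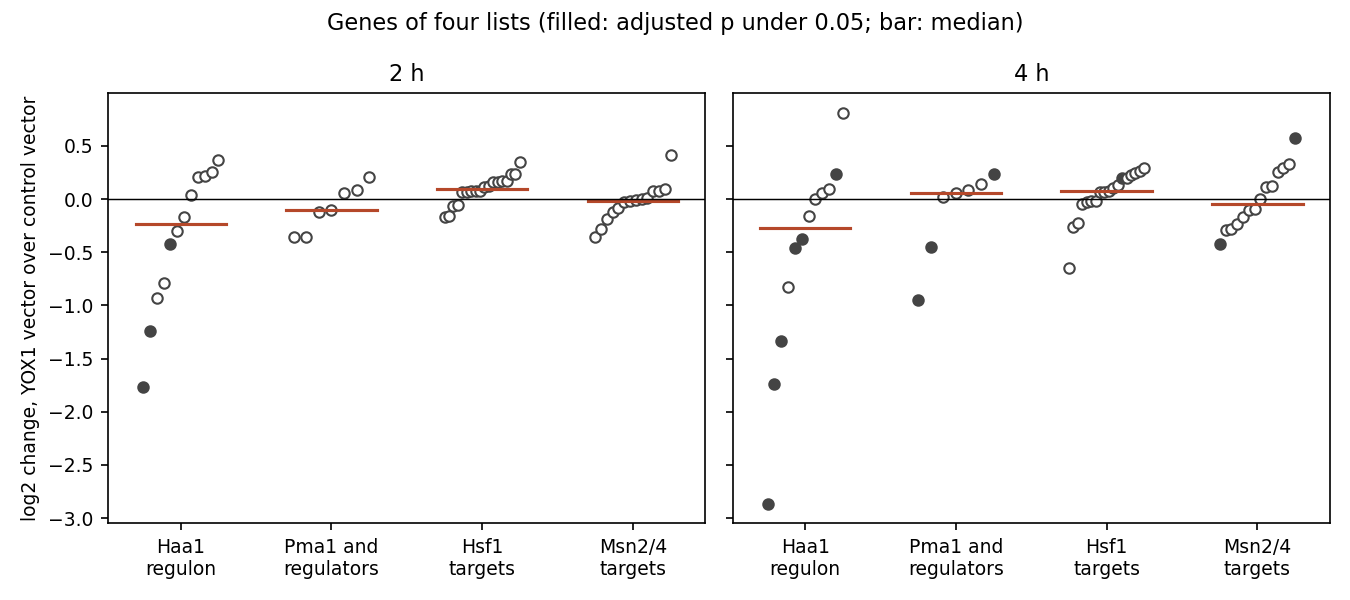
Log2 change of the YOX1 vector over the control vector at 2 h and 4 h for the genes of 4 lists; each point is 1 gene, filled where its adjusted p was under 0.05, and the bar is the median of the list. The Haa1 regulon holds 3 genes called lower at 2 h and 5 at 4 h, HAA1 and YLR297W among them each time. The values of YLR297W are descriptions. Its lowest gene is YGP1.

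The targets of the stress factors were compared between the vectors in the same way. At 2 h the calls over all genes were 1.68% lower and 0.261% higher. The 4 h shares were 4.31% and 1.92%. Of the 6887 genes tested, an unadjusted p under 0.05 was met by 488 lower and 314 higher at 2 h. At 4 h it was met by 732 lower and 677 higher. Of 18 Hsf1 targets, chaperone genes for the most part, limma called 0 at 2 h (an unadjusted p under 0.05 was met by 1 lower and by 6 higher ones). At 4 h it called 0 lower and 1 higher (3 lower and 6 higher unadjusted), STI1, a chaperone partner, at a log2 change of 0.20. Of 14 Msn2 and Msn4 targets limma called 0 at 2 h (2 lower and 1 higher unadjusted). At 4 h it called the catalase gene CTT1 higher, at 0.57, and the glycogen synthase gene GSY2 lower, at -0.42. These 3 genes were named after their values had been seen. Their calls were lost when only the 4 libraries compared were fitted. The call of STI1 was also lost without any 1 of these libraries, that of CTT1 without any 1 except YOX1 vector replicate 1, and that of GSY2 without any 1 except YOX1 vector replicate 2. The medians were 0.10 at 2 h and 0.07 at 4 h for the Hsf1 targets, and -0.02 and -0.05 for the Msn2 and Msn4 targets. HSC82 and HSP10, chaperone genes, had log2 changes of 0.07 and 0.23 at 4 h, and HSP12 and DDR2, general stress genes, of 0.26 and -0.16. SSE1 was at 0.20 and SOD2, the mitochondrial superoxide dismutase, at -0.09. SSA1 and HXK1, which overlap other genes in the tables and so have less certain values, were at -0.23 and 0.30.

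HSP30 is not an Hsf1 target and is in neither list of stress targets. Over the step in which HSP30 fell with the YOX1 vector, 2 h against 0 h, 5 Hsf1 targets were called higher (HSP26, SSA4, AHA1, SSA1 and SSE1). In the same step 4 were called lower (HSP42, HSP104, HSP78 and SIS1), with a median log2 change of -0.03 for the list. Of the Msn2 and Msn4 targets 4 were called higher (HSP12, TKL2, SOD2 and DDR2) and 8 lower, with a median of -0.51, beside a median of 0.00 over all genes. Over all genes 21.6% were called higher and 22.2% lower in this comparison. HSP12 rose by 2.08 (adjusted p = 0.000195 in limma) while HXK1, a hexokinase gene, fell by 0.83 on the log2 scale (adjusted p = 0.000291).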

How the data were processed

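Total RNA was depleted of ribosomal RNA and made into libraries with the TruSeq RNA v2 kit, which does not keep the strand. Per the submitters' processing notes and the study's methods, TopHat2 placed the 50-base reads on sacCer3, and Cufflinks and Cuffdiff gave the abundances. The authors deposited, for each of the 12 libraries, FPKM with an interval and a status for 7126 genes. FPKM are estimates and not counts, so no count model was used.

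Libraries were scaled by median ratios taken from 6585 genes that no library had at 0, with factors of 0.932 to 1.07. Log2 was taken after adding 1 FPKM, which understates the changes of weakly expressed genes. A mean over all libraries of 1 FPKM or more was required, which 6887 genes met, the 3 members among them. These were fitted with limma 3.58.1 in R 4.3.3, with 6 group means over all 12 libraries and a trend in the variance. Tests were two-sided with Benjamini-Hochberg adjustment over all genes of a contrast, and a gene was called at an adjusted p under 0.05. The fit was tested on simulated data. Members, gene lists and tests were chosen with earlier results of these data known. HSP30 was tested only in contrasts without the control vector libraries at 0 h and 2 h, and YRO2 only at 0 h. Fragment numbers were implied from the deposited intervals and are approximate. Beyond the members, the genes named were YOX1, GAL1 and HUG1, the 4 of each list with the highest mean FPKM and the 3 most like each member, with others named after their values had been seen. Alternatives were the pseudocount (0.1 or 10 FPKM), the filter (none or a mean of 10 FPKM), no scaling or quantile normalization, a fit without the trend, a fit of only the compared groups, a block for the replicate number, and leaving out each library. Of the 7126 genes 6048 matched the RefSeq annotation of R64 by identifier, 99.8% of them with the same start and end. Promoter windows of 1000 bases were searched in 6002 genes, a length set after a shorter window had been looked at.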

Additional observations from a re-analysis of the deposited data

Results flagged for a closer look

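The change of MRH1 over time differed between the strains, as tested by the difference of the changes: -0.87 over 2 h and -1.16 over 4 h on the log2 scale (YOX1 vector minus control vector; adjusted p = 0.0143 and 0.00153 in limma). Over 4 h MRH1 went opposite ways, with a log2 change of -0.51 in YOX1 vector cells and 0.65 in control vector cells, and every library of each strain at 4 h lay beyond its untreated libraries. YRO2 did the same over 4 h, with -1.57 in YOX1 vector cells and 1.89 in control vector cells; for YRO2 this difference was not tested, since its libraries had been used to choose the gene. Among the listed genes the change over time differed between the strains by -1.61 over 2 h and -2.71 over 4 h for YGP1. The difference was -1.54 over 4 h for TDA6 and, as a description, -1.37 over 2 h and -1.86 over 4 h for YLR297W. The 2 libraries of a group are too few for a test of outlying libraries.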

How the results depend on the processing

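Each of the 16 tested results of the members was recomputed under 9 alternatives and without each library of its groups, 216 values in all, of which 200 kept their direction and their side of the threshold; 10 lost a call, 0 gained one and 6 changed sign, none of these 6 among called results. When only the libraries of the groups compared were fitted, with fewer degrees of freedom, MRH1 lost its calls between the vectors at 2 h (-0.93, adjusted p = 0.0865), between 4 h and 2 h with the control vector (0.77, adjusted p = 0.064) and with the YOX1 vector (0.48, adjusted p = 0.0509), and in the difference between strains over 2 h (-0.87, adjusted p = 0.0851). Without 1 library that difference ranged from -0.98 to -0.76, and the change from 2 h to 4 h with the YOX1 vector from 0.43 to 0.53. The vector change of YRO2 at 0 h was 0.034 without scaling and 0.009 under quantile normalization, and -0.040 to 0.031 without 1 library; that of HSP30 at 4 h was -0.248 to 0.083 without 1 library. A group left with 1 library was assumed to vary like the others.

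The counts behind the percentages moved too. For the vectors the fit of only the compared libraries called 8 lower and 2 higher genes at 0 h (against 1 and 1), 37 and 9 at 2 h (against 116 and 18), and 48 and 24 at 4 h (against 297 and 132). Against 0 h with the YOX1 vector it called 897 lower and 833 higher at 2 h (against 1529 and 1489) and 1236 lower at 4 h (against 1859). It called 78 lower and 101 higher between 4 h and 2 h with the YOX1 vector (against 357 and 401), 82 and 102 with the control vector (against 593 and 664), and 19 lower and 3 higher in the difference between strains over 2 h (against 44 and 7) and 85 and 13 over 4 h (against 135 and 36). Without 1 library the vectors gave 1 to 19 lower and 1 to 3 higher genes at 0 h, 61 to 77 lower and 6 to 25 higher genes at 2 h, and 167 to 188 lower and 43 to 58 higher at 4 h; 4 h against 2 h gave 112 to 146 lower and 155 to 198 higher with the YOX1 vector, and 240 to 412 lower and 332 to 449 higher with the control vector. Without YOX1 vector replicate 2 at 2 h, 960 genes were called higher at 2 h against 0 h. The difference between strains gave 12 to 40 lower and 1 to 25 higher over 2 h, and 73 to 136 lower and 10 to 76 higher over 4 h. Without scaling the 4 h vector comparison called 225 lower and 201 higher, 4 h against 2 h called 796 lower with the YOX1 vector and 1291 lower and 416 higher with the control vector, 4 h against 0 h called 2403 lower and 1387 higher with the YOX1 vector (against 1859 and 1817) and 2356 lower and 1262 higher with the control vector (against 1789 and 1729), and the median of all genes over 4 h with the control vector shifted by -0.11. Libraries of the same replicate number deviated together weakly or not at all. The r of deviations was -0.13 to 0.21 over 15 pairs of groups, 5 of them over 0.1. Between the vectors it was 0.11 at 0 h, 0.15 at 2 h and 0.21 at 4 h. A replicate block changed no call of a member: MRH1 between the vectors kept -0.93 at 2 h (adjusted p = 0.00218) and -1.22 at 4 h (adjusted p = 0.000297), and the block called 133 lower and 20 higher genes at 2 h. Depth limits HSP30 most, with 206 to 517 implied fragments in treated libraries.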

Other observations

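MRH1 held most of the FPKM of the family in every library, from 67.8% to 90.6% of the sum of the 3 genes. The summed FPKM was 450.3 and 486.2 with the YOX1 vector at 2 h and 583.1 and 619.4 at 4 h, against 949.4 and 838.2 with the control vector at 2 h and 1719 and 1656 at 4 h. HSP30 made up 16.9% to 21.8% of the sum in untreated libraries and 1.07% to 7.73% in treated ones. Among the genes of a library, ordered by FPKM from the highest, YRO2 ranked 3564 and 3053 with the YOX1 vector at 4 h, against 512 and 526 with the control vector.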
